A study of Papio anubis with 12 samples.

Results

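MicroRNA-191 (miR-191) and microRNA-425 (miR-425) are a pair of small regulatory RNAs cut from neighbouring hairpins of the same primary transcript. The entries of the deposited table whose precursor was hsa-mir-191 or hsa-mir-425 were taken, which gave 4 of its 1921 mature miRNA names: both arms of each hairpin, miR-191-5p (MIMAT0000440), miR-191-3p (MIMAT0001618), miR-425-5p (MIMAT0003393) and miR-425-3p (MIMAT0001343). The entries were picked by name and not by measured values, though with earlier results of these data known. Each name had 1 entry whose values no other entry shared. Small RNA was sequenced from the frontal cortex of 12 fetal baboons (Papio anubis) at 165 days of gestation. Mothers of 6 fetuses were under nutrient restriction (MNR), with feed held to 70% of the weight-adjusted intake of control mothers; those of the 6 control fetuses ate as much of the feed as they chose. Each diet had 3 females, here replicates 1 to 3, and 3 males, replicates 4 to 6, and every fetus gave 1 library.

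In human, both hairpins lie in an intron of DALRD3, a gene that in the baboon gene table (Panubis1.0) has WDR6 as a neighbour. Drosha cuts such hairpins out of the primary transcript and Dicer cuts off the loop, and in most cases the strand from 1 arm is loaded into an Argonaute protein while the strand from the other arm is degraded. miR-191-5p and miR-425-5p are the usual guide strands of this locus. Both are widely expressed and, with miR-103a-3p and miR-16-5p, are in common use as reference miRNAs against which others are normalised. The names are those of human miRNAs that the baboon reads matched.

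Levels are in reads per 1000000 counted reads of a library (RPM). Libraries held 1078720 to 1464660 counted reads in MNR and 513029 to 1898763 in controls, and control replicates 6 and 4 and MNR replicate 4 were the shallowest in that order. The tissue label was set against lists of marker miRNAs. The 7 neural miRNAs, led by miR-9-5p, summed to 99887 to 124192 RPM in MNR and 89591 to 116185 RPM in controls, while 3 epithelial miRNAs summed to at most 7.59 RPM in MNR and 6.07 RPM in controls. The 5 erythroid miRNAs of blood summed to 3117 to 5710 RPM in MNR and 2165 to 3920 RPM in controls. The 4 miRNAs of the vessel list summed to more, at a mean of 30824 ± 12895 RPM in MNR and 32951 ± 4816 RPM in controls (SD, n = 6 each). In bulk tissue, fewer cells of a type and less RNA per cell cannot be told apart. The labels give 1 fetus per library and name no mother or batch.

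The arms of the pair differed in level by more than 3 orders of magnitude. miR-191-5p stood 7th of all miRNAs in mean level, at 17781 ± 4018 RPM (SD, n = 12), and held a place between 4 and 10 in every library. Its neighbours in that order, miR-128 (18403 ± 3795 RPM) above and let-7f-5p (17238 ± 2089 RPM) below, differed from it by less than their spread. miR-425-5p stood 118th at 226 ± 34.8 RPM, so the abundance that marks miR-191-5p was not shared by its partner. miR-873-5p (227 ± 78.4 RPM) and miR-190a (219 ± 70.2 RPM) were next to it and likewise within the spread. miR-425-3p stood 214th at 49.3 ± 10.4 RPM, and miR-191-3p 400th at 4.0 ± 2.2 RPM. Together the 4 arms held 2.98 ± 0.361% of the reads of MNR libraries and 3.24 ± 0.873% of those of control libraries (SD, n = 6 each), with every mature name counted once.

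**Figure D1:**
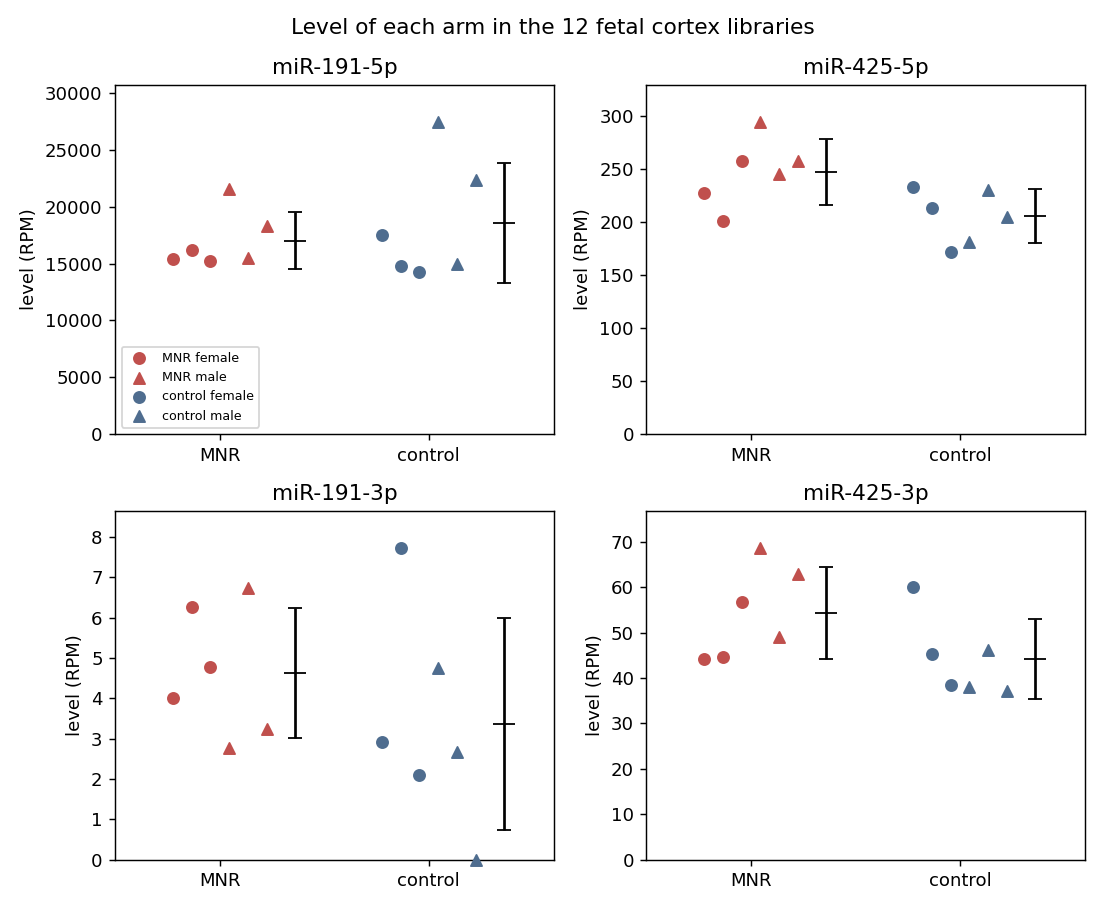
Level of each arm in RPM (vertical axis, from 0) in MNR and control fetuses, with circles for females and triangles for males; the horizontal mark and bar are mean and SD (n = 6). Control replicate 4 stands highest for miR-191-5p at 27430 RPM, and the 3 MNR males lie above the 3 control males for miR-425-5p and miR-425-3p.

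The main comparison asked whether restricting the mother's feed goes with other levels of these miRNAs in the fetal cortex. None of the 4 arms passed the test for diet. miR-191-5p ranged over 15227, 15844 and 21540 RPM in MNR (lowest, median, highest) and over 14280, 16217 and 27430 RPM in controls. The MNR range lay wholly within the control range. Its means were 17017 ± 2486 RPM in MNR and 18545 ± 5286 RPM in controls (SD, n = 6 each), a log2 difference of -0.091 ± 0.17 (SE; limma, Benjamini-Hochberg adjusted p = 0.784). Control replicate 4 at 27430 RPM and control replicate 6 at 22338 RPM stood above the other 4 controls, and without replicate 4 the difference was 0.030.

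miR-425-5p, the guide strand of the second hairpin, ranged over 201.2, 251 and 294 RPM in MNR (lowest, median, highest) and 171, 209 and 233 RPM in controls. Of the 6 MNR fetuses, replicates 3 to 6 lay above every control and replicates 1 and 2 within the control range. Means were 247 ± 31.3 RPM in MNR and 206 ± 25.4 RPM in controls (SD, n = 6 each), with a log2 difference of 0.26 ± 0.14 (SE; limma adjusted p = 0.269). In the authors' deposited table its unadjusted p for diet is 0.030, and that of 21.2% of the 481 miRNAs tested here is under 0.05 in the same column. The passenger strand of this hairpin, miR-425-3p, showed a like difference: 44.2, 52.8 and 68.6 RPM in MNR against 37.0, 41.9 and 60.1 RPM in controls (lowest, median, highest). The groups overlapped, and its log2 difference was 0.29 ± 0.18 (SE; limma adjusted p = 0.354).

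miR-191-3p was read from only 3 to 8 reads per MNR library and 0 to 14 per control library. It was at 4.64 ± 1.61 RPM in MNR and 3.37 ± 2.63 RPM in controls (SD, n = 6 each; log2 difference 0.59 ± 0.42 SE, limma adjusted p = 0.439). That difference was 0.22 without control replicate 6, 0.25 at a pseudocount of 5 RPM, 0.13 with edgeR and 0.14 with DESeq2, and at most 0.84 with any other fetus left out. Summed reads were 35 in MNR and 30 in controls, a ratio per counted read of 1.23 (exact 95% interval 0.736 to 2.08, counting error only). Control replicate 6 held 0 reads, which at its depth allows up to 5.85 RPM, more than the level in 8 of the other 11 libraries.

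Over all 481 miRNAs that reached a mean of 1 RPM, 13 passed for diet (2.7%), and the groups did not overlap for 3.33%; both counts were 0 of 4 for these arms. The 13 were 12 higher and 1 lower in MNR, against 1 higher and 2 lower with median-ratio scaling. At an unadjusted p under 0.05 the count was also 0 of 4 with each tool, where over all 481 limma gave 93 higher and 12 lower, edgeR 37 and 30, and DESeq2 27 and 38. The median log2 difference of all tested miRNAs was 0.23, so miR-425-5p and miR-425-3p lay close to it and miR-191-5p lay 0.32 below it. When libraries were scaled to remove that shift, by median ratios, miR-425-5p was at 0.044 ± 0.11 (adjusted p = 0.884), miR-425-3p at 0.076 ± 0.16 (adjusted p = 0.871) and miR-191-5p at -0.31 ± 0.16 (SE; limma adjusted p = 0.409). miR-191-3p was at 0.43 ± 0.44. All 5 erythroid and all 7 leukocyte markers also had a log2 difference above 0, with 1 erythroid and 0 leukocyte markers past the threshold. Of the neural markers 5 of 7 lay above 0 (1 past the threshold), and of the vessel markers 2 of 4 (0 past it). Of the 481 miRNAs 78.4% lay above 0. The liver marker miR-122-5p passed as lower, at 0 to 1.37 RPM in MNR and 1.47 to 9.75 RPM in controls, so it rested on few reads. The part of these cells in the values was not tested.

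**Figure D2:**
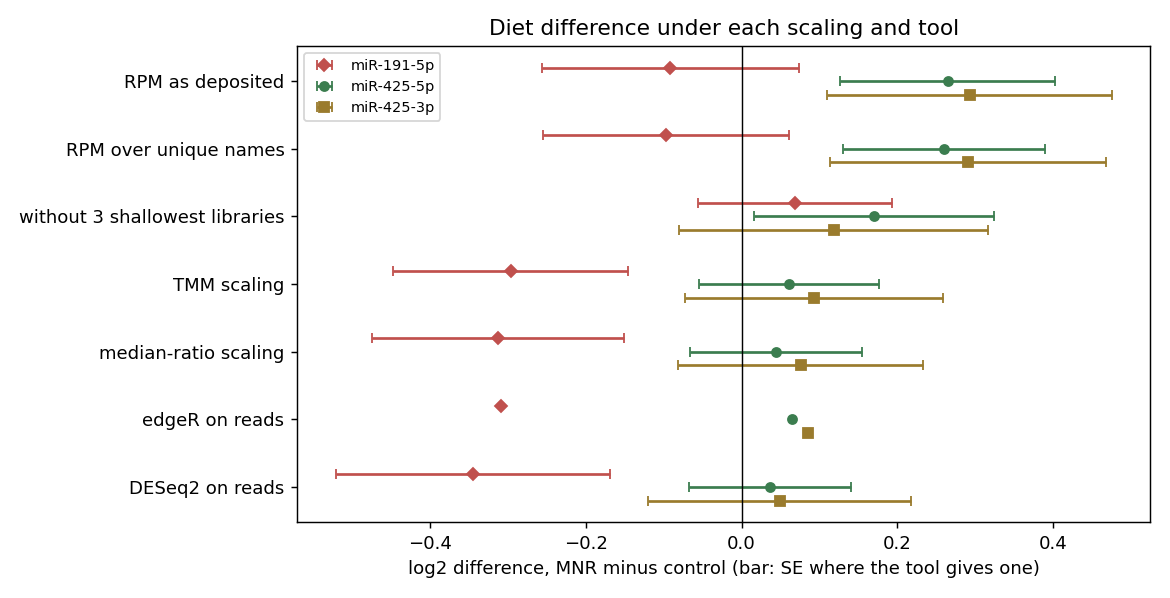
Log2 difference between diets (horizontal axis, MNR minus control; bars are SE, not given by edgeR) of miR-191-5p, miR-425-5p and miR-425-3p under 7 scalings or tools. miR-191-5p lies below 0 in 6 of the 7 and at 0.069 without the 3 shallowest libraries, and the miR-425 arms lie above 0 in all 7, from 0.037 and 0.049 with DESeq2 upwards.

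Within sexes, the miR-425 arms separated the diets in males. MNR males held 294, 246 and 258 RPM of miR-425-5p (replicates 4 to 6), against 181, 230 and 205 RPM in control males, so that the lowest MNR male lay above the highest control male. The same held for miR-425-3p, at 68.6, 48.9 and 63.0 RPM in MNR males and 38.1, 46.2 and 37.0 RPM in control males. Such a separation, with MNR higher, was found for 19.3% of all tested miRNAs in males (23.7% in either direction), and neither arm passed the test (log2 differences 0.37 ± 0.20 and 0.56 ± 0.26 SE; limma adjusted p = 0.350 and 0.304). Both differences were smaller where the scaling removed the median shift: 0.12 (median-ratio), 0.17 (TMM), 0.13 (edgeR) and 0.11 (DESeq2) for miR-425-5p, and 0.31, 0.36, 0.31 and 0.29 in the same order for miR-425-3p. Of the 481 miRNAs 8 passed in males (1.66%), none of them among the 4 arms, of which 1 (miR-425-3p) had an unadjusted p under 0.05 with limma, as did 64 higher and 15 lower of the 481. With edgeR and with DESeq2 that arm was miR-191-5p instead, at log2 differences of -0.45 and -0.49 in males (adjusted p = 0.465 and 0.442). At an unadjusted p under 0.05 in males, edgeR gave 23 higher and 26 lower of the 481, and DESeq2 18 higher and 27 lower. In the authors' deposited table the unadjusted p in males is 0.041 for miR-425-5p and 0.0388 for miR-425-3p, and 12.9% of the 481 miRNAs are under 0.05 in that column.

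In females the diets overlapped for both miR-425 arms, with miR-425-5p at 227, 201.2 and 257 RPM in MNR and 233, 213 and 171 RPM in controls (replicates 1 to 3). Female diets did not overlap, with MNR higher, for 14.8% of all tested miRNAs (16% in either direction). Log2 differences in females were 0.16 ± 0.20 for miR-425-5p and 0.030 ± 0.26 for miR-425-3p (SE; limma adjusted p = 0.862 and 0.966), and both turned below 0 under each scaling that removed the median shift. No miRNA passed in females (0%; 49 had an unadjusted p under 0.05 with limma, and edgeR and DESeq2 called 0). The difference between the sexes in the diet effect, male minus female, was 0.22 ± 0.29 for miR-425-5p and 0.53 ± 0.37 for miR-425-3p and did not pass for either (SE; limma adjusted p = 0.931 and 0.909). No tested miRNA passed for that difference (0%; 9 higher and 15 lower at an unadjusted p under 0.05 with limma, and 0 calls with edgeR and DESeq2).

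For miR-191-5p the high libraries were all male. Male fetuses held 21540, 15476 and 18263 RPM in MNR and 27430, 14947 and 22338 RPM in controls (replicates 4 to 6), while female fetuses held 15385, 16211 and 15227 RPM in MNR and 17487, 14786 and 14280 RPM in controls (replicates 1 to 3). Females of the 2 diets were close, at 15607 ± 529 RPM in MNR and 15518 ± 1724 RPM in controls (SD, n = 3 each; log2 difference 0.013 ± 0.22 SE, limma adjusted p = 0.985; below 0 with edgeR, DESeq2, TMM and median-ratio scaling). In males the log2 difference was -0.20 ± 0.22 (SE; limma adjusted p = 0.721), with -0.45 under median-ratio and -0.40 under TMM scaling. It was -0.0010 without control replicate 4, -0.077 without MNR replicate 5, -0.44 without control replicate 5 and -0.32 without MNR replicate 4. The difference between the sexes in the diet effect did not pass for miR-191-5p (-0.21 ± 0.31 SE; limma adjusted p = 0.939) or for miR-191-3p (0.52 ± 0.84 SE; limma adjusted p = 0.940).

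Since the pair is cut from a shared transcript, the ratio of miR-191-5p to miR-425-5p within a library was taken as a measure that no scaling of the libraries can change. In general, such a ratio also depends on how well each RNA is ligated and copied, so it is not a ratio of molecules. It ranged over 58.9, 69.0 and 80.2 in MNR, against 64.7, 78.8 and 150.9 in controls (lowest, median, highest; on RPM + 1). MNR values sat close together, and control replicates 4 (150.9) and 6 (108.6) stood above every other library. Its log2 averaged 6.10 ± 0.16 in MNR libraries and 6.45 ± 0.46 in control libraries (SD, n = 6 each), a difference of -0.36 ± 0.20 (SE), or 0.781-fold, with 5 of 6 MNR fetuses below the control median. An exact two-sided permutation test gave p = 0.0996 (adjusted p = 0.398 over 4 ratios; the smallest p this design allows is 0.00216). Without the 3 shallowest libraries the difference was -0.10 (exact permutation test, adjusted p = 0.571), and without control replicate 4 alone it was -0.20 (exact permutation test, adjusted p = 0.514). Over all 12 libraries the SD of the log2 ratio was 0.38, where read counting alone gives 0.091.

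The arms of each hairpin kept very different balances. miR-425-3p made up 17.9 ± 1.30% of the reads of its hairpin in MNR and 17.6 ± 1.73% in controls (SD, n = 6 each), ranging from 16.3 to 19.6% in MNR and from 15.3 to 20.5% in controls. The log2 ratio of miR-425-5p to miR-425-3p averaged 2.18 ± 0.12 in MNR and 2.20 ± 0.17 in controls, a difference of -0.028 ± 0.085 (SE; exact permutation test, p = 0.749, adjusted p = 0.749). Its SD over all 12 libraries, 0.14, lay below the 0.22 that read counting alone gives at these depths, so no variation of this balance between fetuses was detectable here. In the miR-191 hairpin the 3p arm made up 35 of 126402 reads in MNR, 0.0277% (exact 95% interval 0.0193 to 0.0385%), and 30 of 134626 in controls, 0.0223% (0.0150 to 0.0318%; counting error only). The log2 ratio of miR-191-5p to miR-191-3p differed by -0.68 ± 0.55 between diets and that of miR-191-3p to miR-425-3p by 0.29 ± 0.48 (SE; exact permutation tests, adjusted p = 0.506 and 0.749). The first of these differences was -0.245 without control replicate 6, whose ratio rests on the pseudocount because it held 0 reads of miR-191-3p. It was -0.99 without control replicate 2.

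**Figure D3:**
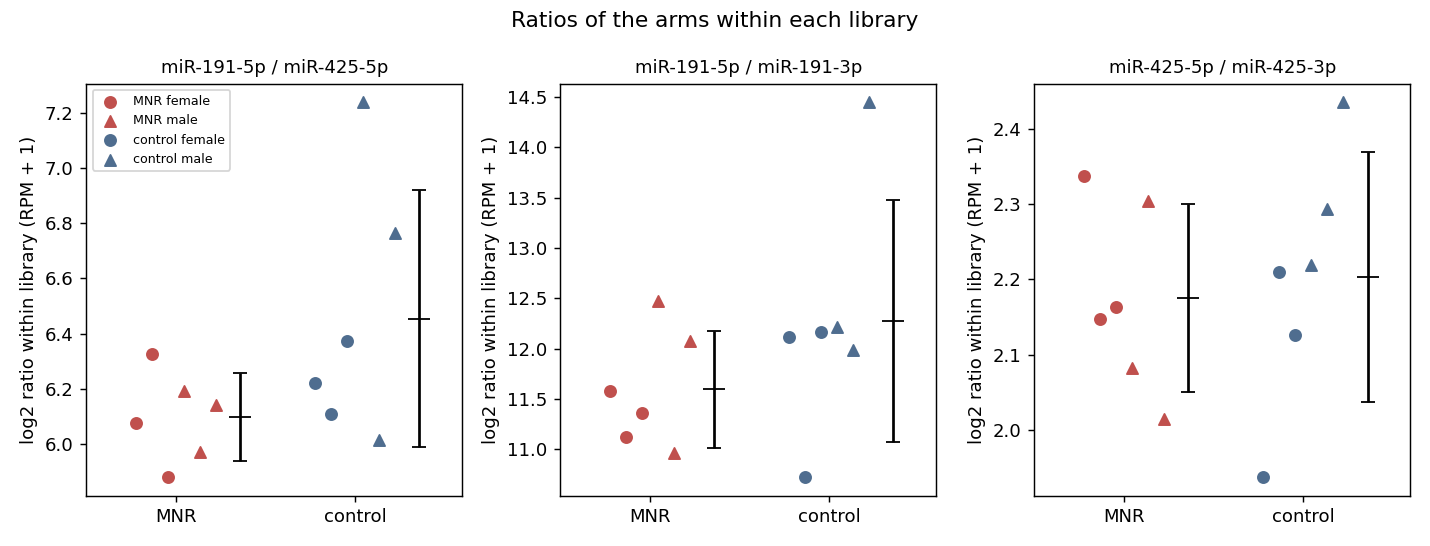
Log2 ratio within each library (vertical axis, on RPM + 1; axes do not start at 0) of miR-191-5p to miR-425-5p and of the arms of each hairpin in MNR and control fetuses, with circles for females, triangles for males, and mean and SD beside them (n = 6). Control replicates 4 and 6 stand above the other libraries in the first panel, and control replicate 6, with 0 reads of miR-191-3p, in the second.

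Across the 12 libraries the RPM levels of the 2 arms of miR-425 varied together, and no correlation between the guide strands of the pair passed the test. All these levels share the scaling of their library, and its part in the correlations was not tested. With median-ratio scaling the SD of the log2 level fell from 0.22 to 0.11 for miR-425-5p and from 0.29 to 0.19 for miR-425-3p. miR-9-3p had a higher r with miR-425-5p (0.94) than miR-425-3p had (0.88). The correlation of miR-191-5p with miR-425-5p on the log2(RPM + 1) scale was r = -0.06 (Spearman rho = 0.15; permutation test with 100000 resamples, p = 0.848 and 0.65, adjusted p = 0.933 and 0.65 over 5 relations). It rested on 2 libraries: without control replicates 4 and 6, the farthest from the median of miR-191-5p, r was 0.71, and it was 0.66 within MNR and -0.27 within controls. miR-425-5p followed miR-425-3p at r = 0.88 (rho = 0.90; permutation p = 9e-05 and 6e-05, adjusted p = 0.00045 and 0.00025), at r = 0.90 within MNR and 0.77 within controls, and at 0.83 without control replicate 3 and MNR replicate 4. miR-191-5p and its own 3p arm had r = -0.35 (rho = -0.17; permutation p = 0.257 and 0.607, adjusted p = 0.428 and 0.65), with miR-191-3p resting on few reads; r was -0.28 without control replicates 4 and 6, and -0.76 within MNR and -0.23 within controls.

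miR-191-5p ran at lower RPM in deeper libraries. Its log2 level and the log2 number of counted reads had r = -0.79 and rho = -0.91 (n = 12; permutation p = 0.00396 and 0.0001, adjusted p = 0.0099 and 0.00025 over the 5 relations). The relation was examined after its values were seen, and the adjustment over the 5 relations does not account for that. Counted reads are also the denominator of RPM. It was r = -0.86 without control replicates 3 and 6, the farthest from the median depth, and -0.71 within MNR and -0.84 within controls. Among the 481 tested miRNAs its rho was the lowest, where the median was -0.12, and its r was 5th from the lowest. miR-425-5p had r = 0.03 and rho = -0.17 with depth (permutation p = 0.933 and 0.602, adjusted p = 0.933 and 0.65; r = 0.16 without control replicates 3 and 6, -0.37 within MNR and 0.07 within controls). The 3 shallowest libraries, all male, were the 3 with most miR-191-5p, so depth moved with sex and, through 2 control libraries, with the ratio; its part in these values was not tested.

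**Figure D4:**
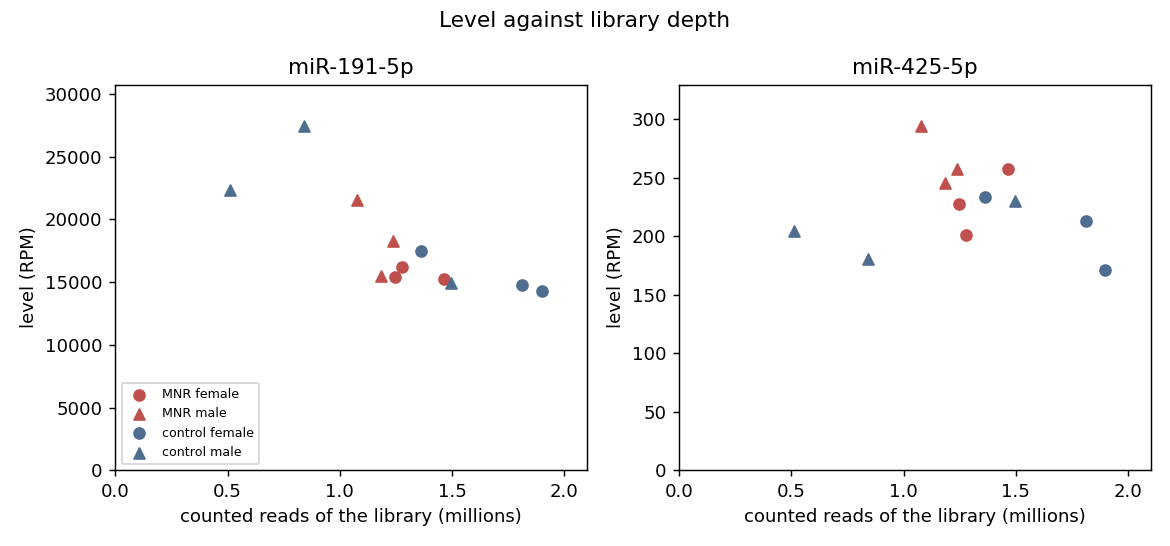
Level in RPM (vertical axis, from 0) of miR-191-5p and miR-425-5p against the counted reads of each library, with circles for females and triangles for males. miR-191-5p stands at 27430 and 22338 RPM in the 2 shallowest libraries and at 14280 RPM in the deepest; the correlation with log2 depth is -0.79 for miR-191-5p and 0.03 for miR-425-5p.

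The pair's use as a reference was examined through its spread over libraries. A reference should vary little, and here miR-425-5p varied less than miR-191-5p. The SD of log2(RPM + 1) over 12 libraries was 0.22 for miR-425-5p, rank 33 from the lowest of 170 miRNAs with at least 100 RPM (median 0.31). It was 0.29 for miR-191-5p, rank 69 of the same 170 and rank 38 of 72 with at least 1000 RPM (median 0.29). The lowest SD of all 481 belonged to miR-103a-3p, at 0.11. After median-ratio scaling, miR-425-5p had an SD of 0.11 and rank 3 of 170, and miR-191-5p one of 0.33 and rank 105. With TMM scaling they stood at ranks 4 and 93.

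Among 17 miRNAs in use as references, the mean SD of each one's log2 ratios to the other 16 was also computed, a measure added after the values were seen. miR-103a-3p had the lowest value, 0.238, and miR-425-5p the next, 0.246, followed by miR-186-5p at 0.251. miR-191-5p ranked 15th at 0.388, above which lay miR-423-5p at 0.433 and miR-221-3p at 0.540. None of the 17 passed for diet with limma (unadjusted p under 0.05 for let-7a-5p, miR-361-5p and miR-423-5p, and for 93 higher and 12 lower of all 481), and their log2 differences ran from -0.09 for miR-191-5p to 0.61 for miR-423-5p.

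**Figure D5:**
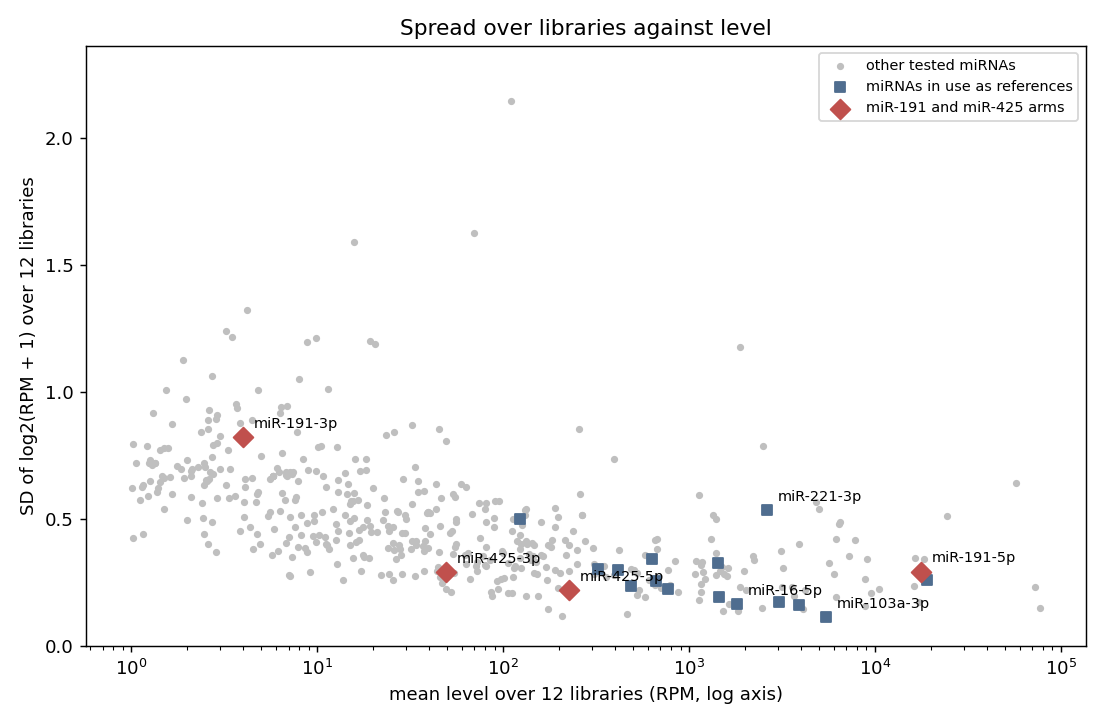
SD of log2(RPM + 1) over 12 libraries (vertical axis) against mean level in RPM (horizontal log axis) for the 481 tested miRNAs in grey, 15 miRNAs in use as references as squares and the 4 arms as diamonds. miR-425-5p (SD 0.22) lies low for its level, miR-191-5p (0.29) lies near the median of the abundant miRNAs, and miR-103a-3p (0.11) is lowest.

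The number of miRNAs that passed for diet differed between references, though by less than it did when a fetus was left out. With each level set relative to miR-191-5p of the same library, 6 of 480 miRNAs passed (1.25%), 4 higher and 2 lower in MNR, and the median log2 difference was 0.32. These were miR-451a, miR-5585-3p, miR-5096 and let-7i-5p higher and miR-10a-5p and miR-122-5p lower. miR-451a, an erythroid miRNA, stood 1.29 higher on the log2 scale relative to miR-191-5p and 0.94 higher relative to miR-425-5p (limma adjusted p = 0.0198 and 0.0388). Relative to miR-425-5p, 3 passed, with miR-451a higher and miR-122-5p and miR-421 lower, and the median was -0.03. Without control replicate 4 or MNR replicate 4 no miRNA passed relative to miR-191-5p (52 and 88 higher at an unadjusted p under 0.05 with limma), and without control replicate 1 there were 16.

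Beside 18 other pairs of miRNAs listed as sharing a primary transcript, the miR-191-5p to miR-425-5p ratio was uneven and moderately variable. Its geometric mean of 77.5 (log2 6.28) was exceeded in size only by that of miR-143-3p to miR-145-5p (125.1), where the median of the 18 was 1.92 on the log2 scale in either direction. Its SD over libraries, 0.38, ranked 12th from the lowest of the 19 pairs, between miR-132-3p to miR-212-3p (0.38) and miR-99a-5p to let-7c (0.41). The lowest was 0.15 for miR-30e-5p to miR-30c-5p, then 0.17 for miR-17-5p to miR-20a-5p, and the highest 0.63 for miR-183-5p to miR-182-5p. Reads of miR-30c-5p may come from more than 1 hairpin, as miR-30c-1-3p (17.1 RPM) and miR-30c-2-3p (25.8 RPM) were both read. That pair therefore need not come from 1 transcript. As a description, 17 of the other 18 pairs had a positive correlation over the 12 libraries, and 1, miR-99b-5p with let-7e-5p (r = -0.08), lay below the r = -0.06 of miR-191-5p with miR-425-5p. All these points share the libraries' scaling.

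The miRNAs whose levels ran most like those of the guide strands were found among 169 others with at least 100 RPM, as a description over 12 libraries that share their scaling. For miR-191-5p they were miR-99a-5p (r = 0.75), miR-99b-5p (0.74) and miR-874 (0.72), and miR-425-5p came 109th. For miR-425-5p they were miR-9-3p (r = 0.94), miR-383 (0.88) and miR-107 (0.86), and miR-191-5p came 153rd. miR-99a-5p and miR-99b-5p differ at few bases, as do miR-107 and miR-103a-3p, and how the counting divided their reads is not known here.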

How the data were processed

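The authors deposited normalised levels of each library in RPM per the file headers, 2234 entries each pairing a human miRBase mature name with a precursor. Also deposited, per the file headers, were a read count pooled over libraries and p-values, not adjusted, for 3 diet comparisons. The p-values for diet over both sexes equal an equal-variance unpaired test on RPM, and the columns of p-values within sexes were not recomputed. Libraries came from total RNA with Illumina's small RNA kit, per the labels' protocols; which aligner and counter were used is not given in the sources used here, and no coordinates were used. RPM steps gave whole reads (100% of values within 0.0051 RPM); edgeR on those reads called 3 miRNAs for diet. Names in several entries (202) made 38.5 to 44.3% of reads repeats, of which the most read entry stayed in.

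The log2(RPM + 1) levels of 481 miRNAs were fitted with limma 3.58.1 (trend), for those averaging 1 RPM or more, a scale that understates changes of low miRNAs. The threshold was a Benjamini-Hochberg adjusted p under 0.05, and the fit was tested on simulated data. Sexes were compared in 1 fit of 4 sex by diet cells. Ratios had exact permutation tests of means. edgeR 4.0.16 and DESeq2 1.42.0 on reads, other scalings, filters and pseudocounts, and leaving out libraries were alternatives. Named are the 4 arms, members of the lists, neighbours in level, the 3 most similar miRNAs each, and calls relative to the pair, which were named after their values were seen. Replicate numbers follow record order and pair no fetuses. The members and lists were chosen with earlier results of these data known.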

Additional observations from a re-analysis of the deposited data

Results flagged for a closer look

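The authors' deposited pooled read count covers more reads than the 12 libraries hold, and the libraries behind the rest were not analysed here. Beyond the 12 libraries it counts 774738 reads of miR-191-5p, 73 of miR-191-3p, 8196 of miR-425-5p and 1964 of miR-425-3p, each above the 3 reads that a count of 0 allows. The 12 libraries hold 16.9% of all pooled reads, summed over all entries with repeated names counted each time. They hold 25.2% of the reads of miR-191-5p, 29.8% of those of miR-425-5p, 28% of those of miR-425-3p and 47.1% of the 138 reads of miR-191-3p. Each arm has 1 entry, so its share and that of all entries rest on unlike bases. No sample of the 4 arms or of the 4 ratios was listed here for its distance from the 5 others of its diet, which does not mean that none stood apart. Control replicate 4 was highest in the ratio of miR-191-5p to miR-425-5p (150.9). Control replicate 6 had a log2 ratio of miR-191-5p to miR-191-3p of 14.4, against at most 12.2 in the other controls.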

How the results depend on the processing

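No paired analysis was possible because the labels give no replicate numbers that groups share. None of the 4 arms passed for diet, and none of the 4 ratios did, under any alternative run; depth limits miR-191-3p most. The number of miRNAs called for diet, 13, became 3 with median-ratio or TMM scaling or edgeR, 8 with DESeq2, 7 with sex as a covariate or without the 3 shallowest libraries (chosen after seeing the data), 1 without a filter or with a pseudocount of 5 RPM, 0 without trend (93 higher at an unadjusted p under 0.05), and 1 to 26 with a fetus left out. In males the 8 calls became 3 with DESeq2, 2 without a filter, 0 above 10 RPM (49 higher at an unadjusted p under 0.05) and 0 to 10 with a fetus left out, and in females 0 to 2. Relative to miR-191-5p the 6 calls became 3 with miR-425-5p and 2 with both as reference, and 0 to 16 with a fetus left out.

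The diet difference of miR-191-5p turned to 0.069 without the 3 shallowest libraries and ran from -0.16 to 0.030 (without control replicate 4) with a fetus left out. The 5p to 3p ratio of miR-425 turned to 0.052 without those 3 libraries and ran from -0.081 to 0.018, and the ratio of the 3p arms turned to -0.025 at a pseudocount of 5 RPM and ran from -0.031 to 0.54. In females, miR-191-5p turned to -0.18 (median-ratio), -0.19 (TMM), -0.13 (edgeR) and -0.16 (DESeq2), and ran from -0.044 to 0.10. miR-425-5p turned to -0.033, -0.050, -0.0044 and -0.036 in the same order, and miR-425-3p to -0.15, -0.17, -0.13 and -0.16, with -0.11 to 0.20 when a fetus was left out. The diet by sex difference of miR-191-3p ran from -0.21 to 1.05.

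The SD of log2 level moved to 0.11 and 0.12 for miR-425-5p and to 0.19 and 0.22 for miR-425-3p (median-ratio, TMM), and for miR-191-3p to 0.37 (pseudocount 5 RPM), 1.01 (TMM) and 1.01 (unique names). With a fetus left out it ran from 0.22 to 0.31 for miR-191-5p and 0.49 to 0.86 for miR-191-3p. The correlation of miR-191-5p with miR-425-5p ran from -0.31 to 0.38. The cause was not tested for any of these.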
